A study of Mus musculus with 4 samples.

Results

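The 9 genes described here encode the variant core histones of the mouse that are made outside the replication-dependent clusters: H3f3a and H3f3b for H3.3, H2afx for H2A.X, H2afy and H2afy2 for macroH2A, H2afz and H2afv for H2A.Z, H2afj for H2A.J, and Cenpa for the centromeric H3 variant CENP-A. They were listed by name among the 43629 gene identifiers of the count tables, and all 9 were among the 16500 genes that passed a filter on low counts. RNA was sequenced from primary CD117+ hematopoietic stem and progenitor cells (HSPCs) of C57Bl/6 mice in which both Chaf1b alleles are floxed (Chaf1b fl/fl), so controls and deleted cells share this genotype. The cells were cultured with SCF, IL6, IL3 and LDL and spinfected either with MIGR1, an empty retroviral vector that marks cells with eGFP (2 control libraries, MIGR1), or with MIGR1 carrying Cre recombinase (2 libraries, dChaf1b), and eGFP+ cells were sorted after 48 h. Chaf1b is the p60 subunit of CAF-1, the chaperone that places newly made H3-H4 behind the replication fork, and the comparison asks what happens to the transcripts of the other core histones when it is removed. Nothing in the sources says that the 2 libraries of a group came from separate animals or cultures. The p-values therefore measure the spread between these libraries, which may be technical for MIGR1. The dChaf1b libraries differed in Xist and Y-linked counts, given below, and so were not repeats of the same cells.

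Most histone genes are transcribed in S phase from clusters without introns, and their mRNAs end in a stem-loop instead of a poly(A) tail. Variant genes lie outside the clusters, are mostly spliced and polyadenylated, and supply histones throughout the cell cycle: H3.3 is placed by HIRA or by DAXX-ATRX wherever nucleosomes are turned over, H2A.Z is exchanged by SRCAP and p400, H2A.X is phosphorylated around DNA breaks, macroH2A carries a large non-histone domain and marks silent chromatin, and CENP-A is loaded at centromeres by HJURP. H2afx is known to stand between the classes, since it yields both a stem-loop mRNA in S phase and a polyadenylated one.

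The data are counts of reads per gene. The total counted on genes ran from 18468637 to 25409926 per library, and values are given per 1000000 counts of that total (CPM), on which scale 3 counts, the limit that a count of 0 allows, are 0.118 to 0.162 CPM. The targeted gene was checked first. Chaf1b stood at 80.3 and 57.9 CPM in the MIGR1 libraries and at 16.1 and 17.9 CPM in the dChaf1b libraries, a log2 fold change of -2.01 with an SE of 0.25 (adjusted p = 0.0330 in the edgeR quasi-likelihood test, adjusted by Benjamini-Hochberg). Of 10 markers of CD117+ HSPCs, 9 were matched in the annotation, their summed level was 4749 to 5315 CPM in MIGR1 and 4366 to 5117 CPM in dChaf1b, and none was at 0. The library dChaf1b replicate 1 stood apart: Xist was at 336 CPM there and between 1.14 and 1.30 CPM elsewhere, 4 Y-linked genes summed to 0.127 CPM against 306 to 324 CPM, and 25 interferon-stimulated genes lay at a median of 3.29 log2 units above the mean of the controls, against 0.32 for dChaf1b replicate 2. Fits without this library are given below for the genes and lists where it decides a value. In such bulk samples, fewer cells of a type and less RNA per cell cannot be told apart.

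Of the 9 variant genes, 1 was called higher in dChaf1b, H3f3b, and 0 were called lower, where a call needed a change of at least 1.5-fold and an adjusted p-value under 0.05. Over all genes tested, 0.37% were called higher and 0.00606% lower. At an unadjusted p-value under 0.05 in the edgeR quasi-likelihood test the variant genes that were higher numbered 2, H3f3b and H2afx, with 0 lower. Over all 16500 genes tested, 1510 were higher and 512 lower at that p-value. Both dChaf1b libraries lay above both MIGR1 libraries for 6 of the 9 genes (H3f3a, H3f3b, H2afx, H2afy2, H2afj and Cenpa), against 21.4% of all genes tested, and for the other 3 (H2afy, H2afz and H2afv) the groups overlapped. The median log2 fold change was 0.25 over the 9 genes and -0.03 over all genes tested. Within the family the size of the change was uneven: it was 1.85 on the log2 scale for H3f3b and 1.62 for H2afx, and between -0.06 and 0.56 for the remaining 7.

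**Figure D1:**
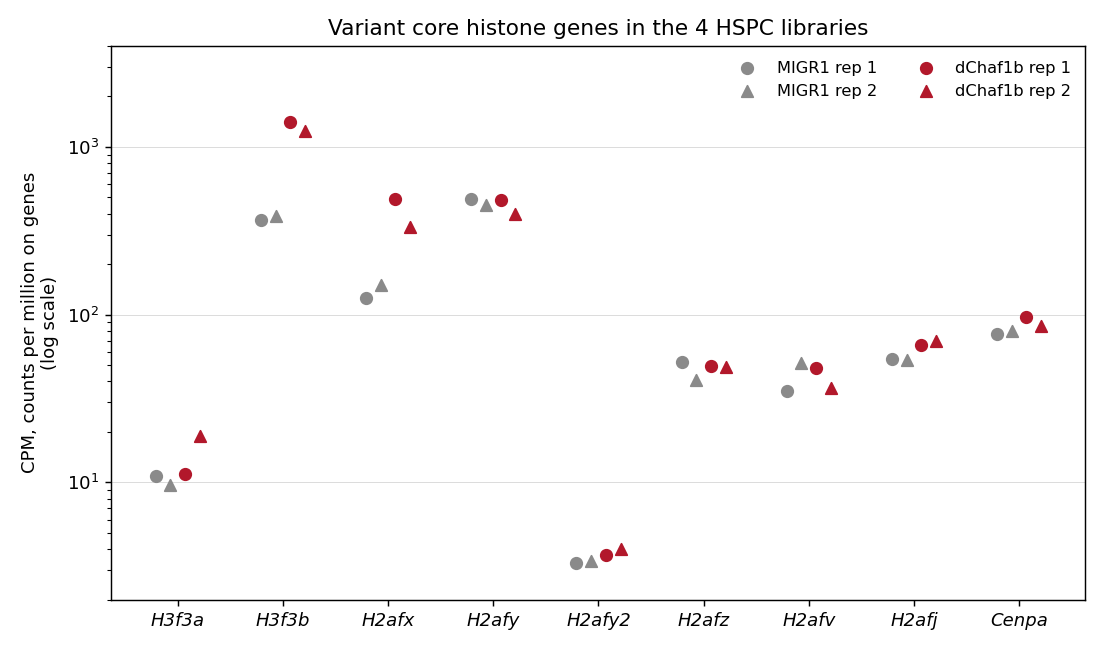
Level of each of the 9 variant core histone genes in the 4 HSPC libraries, in CPM on a log scale, grey for MIGR1 and red for dChaf1b, with circles for replicate 1 and triangles for replicate 2. For H3f3b and H2afx both red points stand well above both grey points, and for H2afy, H2afz and H2afv the colours overlap.

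The H3.3 genes make the same protein from different letters. H3f3a (ENSMUSG00000060743) lies on chr1:182730963-182744074 on the minus strand of mm9 and H3f3b (ENSMUSG00000016559) on chr11:115883226-115889276, also on the minus strand. Translated from the annotated coding sequences, 136 of 136 residues were identical, while 95 of 411 coding bases differed. The first 120 coding bases of each are shown because they make clear that reads from the coding part can be told apart although the proteins cannot; capitals mark the 24 bases in this stretch at which the genes differ.
H3f3a: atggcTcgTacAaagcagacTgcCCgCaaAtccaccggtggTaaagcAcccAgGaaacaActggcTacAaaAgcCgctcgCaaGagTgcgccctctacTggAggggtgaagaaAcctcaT
H3f3b: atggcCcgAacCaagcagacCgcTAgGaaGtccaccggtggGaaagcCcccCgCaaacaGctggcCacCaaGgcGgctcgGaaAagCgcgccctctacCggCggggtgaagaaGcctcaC

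H3f3b was the one variant gene that passed the test. It stood at 366 and 386 CPM in the MIGR1 libraries and at 1414 and 1237 CPM in the dChaf1b libraries. Each group was tight, and the lower dChaf1b library was still 3.20 times the higher control. The means were 376 ± 14.3 and 1325 ± 125 CPM (SD, n = 2 each), a 3.52-fold rise, and the fitted log2 fold change was 1.85 with an SE of 0.26 and a 95% interval from 1.24 to 2.47. The adjusted p was 0.0429 in the edgeR quasi-likelihood test, adjusted by Benjamini-Hochberg, which places H3f3b close to the threshold. Without dChaf1b replicate 1, the library that stood apart, the log2 fold change was 1.64 (adjusted p = 0.0148 by the same edgeR test), and without dChaf1b replicate 2 it was 2.05 (adjusted p = 0.00782 by edgeR). The size was similar without MIGR1 replicate 1, at 1.82, and without MIGR1 replicate 2, at 1.88, but the call was lost there, with edgeR adjusted p-values of 0.0744 and 0.0607. The call was also lost with DESeq2's size factors in edgeR (adjusted p = 0.0597) and with at least 10 counts required in every library (adjusted p = 0.0651 by edgeR), at a log2 fold change of 1.85 in each.

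The genes whose profile over the 4 libraries lay nearest to that of H3f3b, among tested genes with a mean above 1 CPM, depended on the offset added before the log. On log2(CPM + 0.5) they were Epha2, Ramp3 and Diras2, with root mean square distances of 0.0452, 0.0518 and 0.075 log2 units among 13925 genes, but the offset shrinks the changes of such low genes, whose fitted log2 fold changes were 2.33, 3.02 and 2.06. With no offset, a setting added after the values were seen, they were Elavl3, Afp and Car4, at 0.0413, 0.0506 and 0.0681 log2 units among the 13907 genes counted in every library, with fitted log2 fold changes of 1.78, 1.86 and 1.87. Afp, which encodes alpha-fetoprotein, stood at 1.98 and 2.09 CPM in MIGR1 and at 7.35 and 7.09 CPM in dChaf1b.

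Some reads of H3f3b cannot be placed. Of the stretches of 31 bases in its exons, 26.4% occur elsewhere in the genome, 455 of them in Gm6485, a processed copy on chromosome 3. Gm6485 held 12, 9, 64 and 30 counts in MIGR1 replicates 1 and 2 and dChaf1b replicates 1 and 2. These counts are few beside the 8322, 9814, 33275 and 22842 counts of H3f3b itself. The MIGR1 libraries alone would not have carried Gm6485 past the filter on low counts, so being higher in dChaf1b was favoured by the filter. Its log2 fold change, 2.34 with an SE of 0.61, is given as a description.

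H3f3a, the other H3.3 gene, was not called. Its CPM was 10.9 and 9.60 in the MIGR1 libraries and 11.2 and 19.0 in the dChaf1b libraries. dChaf1b replicate 1 barely cleared the controls, and the difference lay in dChaf1b replicate 2. The means were 10.2 ± 0.892 and 15.1 ± 5.51 CPM (SD, n = 2 each), and the log2 fold change of 0.56 (SE 0.31, 95% interval -0.16 to 1.28) missed the threshold at an adjusted p of 0.529 in edgeR's quasi-likelihood test. Beside it, 29.0% of the 31-base stretches of H3f3a occur elsewhere, and other genes and pseudogenes share such stretches, among them Gm10257 with 636 and H3f3a-ps2 with 607. On the opposite strand, the noncoding genes Gm17275 and Gm16067 share 638 and 160 exonic bases with it, and reads of the pairs can be told apart only if the counting used the strand, which is not given in the sources used here. What part unplaced reads have in the low level of H3f3a was not tested.

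Levels of different genes can be compared only per length of exon, as reads per kilobase of exon in a library scaled like the CPM (RPKM). On that scale H3f3b stood at 126 ± 4.80 in MIGR1 and 445 ± 42.0 in dChaf1b (SD, n = 2 each), and H3f3a at 2.92 ± 0.254 and 4.31 ± 1.57. H3f3b thus supplied nearly all counts on the H3.3 genes. Its share was 97.1% and 97.6% in MIGR1 and 99.2% and 98.5% in dChaf1b, a difference of 1.504 percentage points without overlap between the groups. The exact two-sided permutation test over the 4 libraries gave p = 0.333, the smallest value that 2 against 2 libraries allow.

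The promoter of H3f3b is shown because H3f3b is the variant gene that was called higher and because its letters repeat a known element. The stretch below is the 250 bases before the RefSeq start of H3f3b on GRCm38.p6, chr11:116024505-116024754, read on the strand of the gene (minus), and capitals mark CCAAT, the motif bound by NF-Y.
H3f3b promoter: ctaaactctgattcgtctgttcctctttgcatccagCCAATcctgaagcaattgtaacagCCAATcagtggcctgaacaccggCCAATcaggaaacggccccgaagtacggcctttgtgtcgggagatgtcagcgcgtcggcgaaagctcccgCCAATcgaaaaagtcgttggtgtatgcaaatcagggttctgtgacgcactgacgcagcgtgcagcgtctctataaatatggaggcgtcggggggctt
It holds 4 CCAAT motifs, at -214, -190, -167 and -97 from the start, all in the same orientation, and TATAAA at -27. RefSeq promoters, 300 bases each, were found for 8 of the 9 variant genes (H2afx had no entry), and 6 motifs were searched on both strands, namely CCAAT for NF-Y, TATAAA for the TATA box, TTTGAA for the CHR element of cell cycle genes, CCGGAAG for an ETS core, TGACGTCA for the CRE and TTTGGCGC for E2F. Of all 32851 promoters in the table, 37.4% held CCAAT, 17.9% TTTGAA, 13.6% TATAAA, 8.86% CCGGAAG, 1.79% TGACGTCA and 0.514% TTTGGCGC. Among the variant genes TATAAA was found in H3f3b alone. CCAAT was found in the windows of H3f3a, H3f3b, H2afy2, H2afz, H2afv, H2afj and Cenpa and not in that of H2afy, and H2afv also held it at 4 places, all on the opposite strand. TTTGAA was found in H2afv and Cenpa, and the ETS, CRE and E2F letters were found in none of the 8 windows. A match to letters is not a bound site, and the part of these motifs in the levels of the variant genes was not tested.

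Among the H2A variants H2afx moved furthest. H2afx (ENSMUSG00000049932) is a single exon of 1357 bases on chr9:44142798-44144154, plus strand. It stood at 126 and 151 CPM in the MIGR1 libraries and at 491 and 332 CPM in the dChaf1b libraries. Both deleted libraries stood well above the controls, the smallest ratio between the groups being 2.20, but they differed from each other more than those of H3f3b, the higher being dChaf1b replicate 1. The means were 139 ± 17.9 and 412 ± 112 CPM (SD, n = 2 each), a 2.97-fold difference, with a log2 fold change of 1.62, an SE of 0.29 and a 95% interval from 0.94 to 2.30. The adjusted p of 0.0798 in the edgeR quasi-likelihood test, adjusted by Benjamini-Hochberg, missed the threshold. Without dChaf1b replicate 1 the log2 fold change fell to 1.18 but passed (adjusted p = 0.0457 by edgeR), and it also passed without dChaf1b replicate 2, at 1.97 (adjusted p = 0.00982 by edgeR), and without MIGR1 replicate 2, at 1.74 (adjusted p = 0.0191 by edgeR). H2afx was called by edgeR's exact test (adjusted p = 1.25e-04), by its likelihood ratio test (adjusted p = 1.1e-04) and by DESeq2 (adjusted p = 2.46e-05). Over all genes tested, these tests called 537, 583 and 471 genes higher, against 61 in the quasi-likelihood test. Its direction was the same in each of these fits, and the call depended on the test and on the libraries that were fitted.

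The tail of H2A.X is what sets it apart from the other H2A proteins. The last 30 coding bases, stop codon included, are shown for 4 H2A variants, with the codons of each serine followed by glutamine, the pair that ATM, ATR and DNA-PK recognize, in capitals.
H2afx: aaggccTCGCAGgccTCTCAGgagtactga
H2afj: acggagAGCCAGaaggtgaagagcaagtga
H2afz: gggaagaaaggacaacagaagactgtttaa
H2afv: ggaaagaaggggcagcagaaaactgcttag
H2afx has 2 such pairs in this stretch, H2afj has 1, and H2afz and H2afv have 0. The exon of H2afx also holds, from base 526, an inverted repeat of the kind that forms the histone mRNA stem-loop (a stem of 6 bases opening with GG, and a loop of TTT and any base), at chr9:44143323-44143338 of mm9, plus strand, in which capitals mark the paired bases; no such repeat was found in the exons of the other 8 genes.
H2afx stem-loop: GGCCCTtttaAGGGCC

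The libraries were made from total RNA after ribosomal depletion, without selection for poly(A), so both kinds of H2afx mRNA could be counted, and one number per gene cannot separate them. Of the 31-base stretches of H2afx, 9.04% occur elsewhere, 120 of them at the replication-dependent H2A genes of the chromosome 13 cluster. The 15 replication-dependent H2A genes with counts summed to 609 and 543 CPM in MIGR1 and to 951 and 521 CPM in dChaf1b. Hist1h2aa, known mainly from testis, was counted among them by its name. The sums were high in dChaf1b replicate 1 and low in dChaf1b replicate 2, so that the groups overlapped.

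H2afj (ENSMUSG00000060032, chr6:136756769-136758595, plus strand) encodes H2A.J, a close relative of the replication-dependent H2A proteins. It stood at 54.2 and 53.4 CPM in MIGR1 and at 66.0 and 69.8 CPM in dChaf1b. The groups did not overlap and were tight, but the step was small: the means were 53.8 ± 0.525 and 67.9 ± 2.70 CPM (SD, n = 2 each), and the log2 fold change of 0.36 (SE 0.20, 95% interval -0.10 to 0.82) missed the threshold (adjusted p = 0.527 in edgeR's quasi-likelihood test). Of its 31-base stretches, 7.46% occur elsewhere, mostly in replication-dependent H2A genes.

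**Figure D2:**
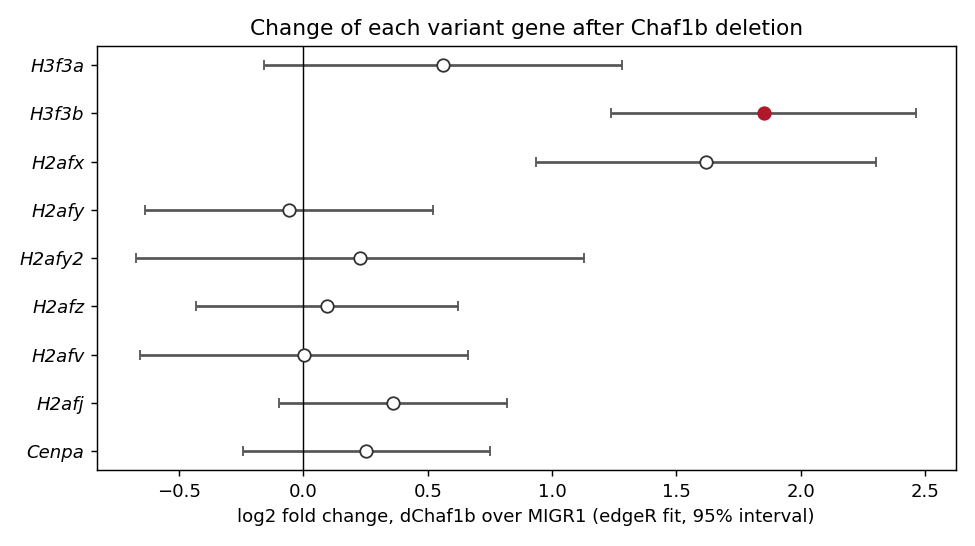
Log2 fold change of each variant gene, dChaf1b over MIGR1, from edgeR's fit with its 95% interval as a bar; the filled point was called. The bars of H3f3b (1.24 to 2.47) and H2afx (0.94 to 2.30) lie wholly above 0, and those of the other 7 genes include 0.

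The H2A.Z genes encode proteins that are almost the same: 125 residues are identical between H2afz and H2afv and 3 differ. H2afz (ENSMUSG00000037894, chr3:137527451-137529886, plus strand) stood at 52.4 and 41.0 CPM in MIGR1 and at 49.4 and 48.5 CPM in dChaf1b, with both dChaf1b libraries inside the range of the controls. H2afv (ENSMUSG00000041126, chr11:6327229-6344446, minus strand) stood at 35.1 and 51.7 CPM in MIGR1 and at 47.9 and 36.4 CPM in dChaf1b, again inside the range of the controls. The log2 fold change of H2afz was 0.10 (SE 0.23, 95% interval -0.43 to 0.62), and the adjusted p was 0.913 in edgeR's quasi-likelihood test. That of H2afv was 0.00 (SE 0.28, 95% interval -0.66 to 0.66), with an adjusted p of 0.999 in the same edgeR test. For neither gene was a difference detectable within these intervals.

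Per length the H2A.Z genes were level: H2afz stood at 26.3 ± 4.51 RPKM and H2afv at 26.5 ± 7.17 RPKM in MIGR1 (SD, n = 2 each), which do not differ beyond their spread. The share of H2afz in their summed counts was 59.9% and 44.3% in MIGR1 and 50.8% and 57.1% in dChaf1b. The controls enclosed the deleted libraries (exact two-sided permutation p = 1.0). H2afz is the variant gene with the most repeated sequence, since 46.4% of its 31-base stretches occur elsewhere. Of these, 709 lie in Gm8203, a pseudogene inside Tmcc1 on chromosome 6, so part of its reads may have been left uncounted, whereas 1.28% of the stretches of H2afv are repeated.

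Nearly all counts on the macroH2A genes were those of H2afy. H2afy (ENSMUSG00000015937, chr13:56174980-56237722, minus strand), which encodes macroH2A1, stood at 491 and 450 CPM in MIGR1 and at 481 and 399 CPM in dChaf1b. The groups overlapped, with dChaf1b replicate 2 the lowest of the 4 libraries. The log2 fold change was -0.06 (SE 0.25, 95% interval -0.64 to 0.52; adjusted p = 0.951 in edgeR's quasi-likelihood test). Per length H2afx led H2afy in both groups, with 102 ± 13.2 RPKM against 69.1 ± 4.25 for H2afy in MIGR1 and 304 ± 82.8 against 64.7 ± 8.52 in dChaf1b. That order depends on the length used, all annotated exons merged, which is 6809 bases for H2afy and 1357 for H2afx. In CPM the means were 470 for H2afy and 139 for H2afx in MIGR1, and 440 and 412 in dChaf1b. The splice forms macroH2A1.1 and macroH2A1.2 are counted together in H2afy and cannot be told apart here.

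H2afy2 (ENSMUSG00000020086, chr10:61201391-61246895, minus strand), the macroH2A2 gene, was the lowest of the 9 per length, at 1.52 RPKM in MIGR1. It held 75 and 86 counts in MIGR1 and 87 and 74 counts in dChaf1b, which are 3.299, 3.38, 3.70 and 4.01 CPM. The 95% Wilson intervals of these levels ran from 2.63 to 4.13, 2.74 to 4.18, 2.997 to 4.56 and 3.19 to 5.03 CPM, and all 4 overlap, so the order of the groups is within counting error. The log2 fold change was 0.23 (SE 0.39, 95% interval -0.67 to 1.13; adjusted p = 0.865 in edgeR's quasi-likelihood test). On the opposite strand Aifm2 shares 244 exonic bases with it, 11.1% of its exons, and stood at 17.2, 25.4, 21.96 and 19.9 CPM in the same order of libraries. Another 400 of its 31-base stretches match the H2afy3 pseudogene on chromosome 15. The share of H2afy in the counts on the macroH2A genes was 99.3% in both MIGR1 libraries and 99.2% and 99.0% in dChaf1b (exact two-sided permutation p = 0.333, the smallest possible).

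Cenpa (ENSMUSG00000029177, chr5:30969150-30977200, plus strand), whose product shares 58 residues with H3.3 over an alignment of their 136 and 134 residues, stood at 76.6 and 79.9 CPM in MIGR1 and at 96.5 and 85.8 CPM in dChaf1b. Both dChaf1b libraries lay above both controls. The means were 78.3 ± 2.34 and 91.1 ± 7.60 CPM (SD, n = 2 each), and the log2 fold change of 0.25 (SE 0.21, 95% interval -0.24 to 0.75) missed the threshold (adjusted p = 0.703 in edgeR's quasi-likelihood test). With 0.218% of its 31-base stretches repeated, it has the smallest such share of the 9 genes. Cenpa is known to be transcribed mainly in G2, and the G2/M genes did not lie on the same side: of 25 such genes, all tested, 0 were called by edgeR, 9 were lower at an unadjusted p under 0.05, 24 were lower in both dChaf1b libraries than in both controls, against 22.9% of all genes tested, and 0 were higher, with a median log2 fold change of -0.43. Their summed level was 8032 and 8506 CPM in MIGR1 and 4618 and 5637 CPM in dChaf1b. Of 25 S-phase genes 0 were called by edgeR or passed an unadjusted p under 0.05. In this list 13 were lower in both dChaf1b libraries and 1, Rrm2, was higher in both, with a median of -0.30. Over all 16500 genes tested, 22.9% were lower and 21.4% higher in both. At the unadjusted p, 512 of the 16500 were lower and 1510 higher.

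Ordered by RPKM in the controls, the 9 genes ran H3f3b (126), H2afx (102), H2afy (69.1), Cenpa (31.3), H2afj (29.5), H2afv (26.5), H2afz (26.3), H3f3a (2.92) and H2afy2 (1.52). H2afj, H2afv and H2afz, neighbours in this order, did not differ beyond their SDs. The order rests on the merged length of all annotated exons of each gene. In dChaf1b the order was H3f3b (445), H2afx (304), H2afy (64.7), H2afj (37.2), Cenpa (36.4), H2afz (27.6), H2afv (25.7), H3f3a (4.31) and H2afy2 (1.75), where H2afj and Cenpa, and H2afz and H2afv, were within their SDs of each other.

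The variant genes were then set against the replication-dependent genes that encode the same kinds of histone, a comparison chosen after the values were seen. The H3 genes compared here were 4 replication-dependent ones with counts, H3f3a, H3f3b and Cenpa. Of the counts on them, H3.3 (H3f3a and H3f3b) took 33.1% and 36.7% in MIGR1, and 59.4% and 68.5% in dChaf1b. The share was thus higher in each dChaf1b library, by 29.0 percentage points between the means of 34.9% ± 2.54 and 63.9% ± 6.42 (SD, n = 2 each; exact two-sided permutation p = 0.333, the smallest possible). The 4 replication-dependent H3 genes themselves summed to 684 and 602 CPM in MIGR1 and to 878 and 493 CPM in dChaf1b, on both sides of the controls. Gm12260, a gene close to H3.3 that is described under other observations, was left out of the H3 genes. It stood at 0.748 and 0.433 CPM in MIGR1 and at 280 and 127 CPM in dChaf1b. Counting it would lower the H3.3 share in dChaf1b and the difference between the groups. On the H2A side the 6 variant genes together did not stand apart, taking 55.6% and 58.0% of the counts on H2A genes in MIGR1 and 54.5% and 63.1% in dChaf1b (exact two-sided permutation p = 1.0). Within them H2afx took 9.18% and 11.7% in MIGR1 and 23.5% in each dChaf1b library (exact two-sided permutation p = 0.333, the smallest possible). Identifiers of several cluster genes were not used here and many cluster genes share sequence, so these shares are of counted reads and not of all histone mRNA.

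**Figure D3:**
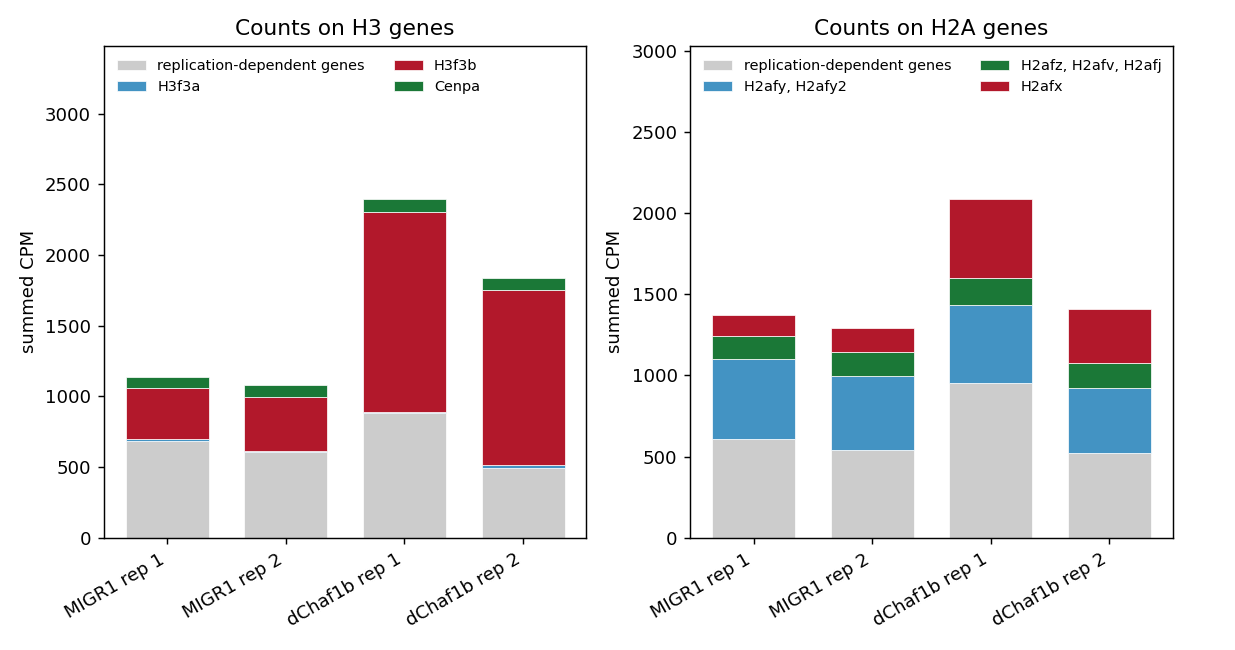
Summed CPM of the compared genes that encode H3 (left) and H2A (right) in each library, stacked by class, with replication-dependent genes in grey. Gm12260 is not included. The H3f3b block is 366 and 386 CPM in MIGR1 and 1414 and 1237 CPM in dChaf1b, and the grey block is highest in dChaf1b replicate 1 and lowest in dChaf1b replicate 2 in both panels.

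The genes that place or read the variants were not called. Of 49 such genes in 4 lists, all tested, 0 were called in the edgeR quasi-likelihood test, adjusted by Benjamini-Hochberg, against 0.37% and 0.00606% of all genes. At an unadjusted p under 0.05 in that test 5, among them Brd8, Prkdc, Atr and Cenpc1, were lower and 0 higher. Of all 16500 genes tested, 512 were lower and 1510 higher at that p. In both dChaf1b libraries 27 of the 49 were below both controls, against 22.9% of all genes, and 3 (Cabin1, Wrap53 and Rbbp4) above, against 21.4%, and their median log2 fold change was -0.29, beside -0.03 for all genes. Without dChaf1b replicate 2, edgeR called 1 of them, Prkdc, as lower, and without dChaf1b replicate 1 it called 0. The median of the 49 was -0.31 without dChaf1b replicate 1 and -0.14 without dChaf1b replicate 2.

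By role, the 9 genes of H3.3 deposition had a median log2 fold change of -0.16. Of them 4 were lower in both dChaf1b libraries and 1, Cabin1, higher in both, against 22.9% and 21.4% of all genes tested. The fitted median was -0.13 without dChaf1b replicate 1 and -0.16 without dChaf1b replicate 2, while on the CPM scale, before the TMM scaling, the median against the mean of the controls was -0.295 in dChaf1b replicate 1 and -0.0425 in replicate 2, the latter within the 0.0618 by which the controls themselves lay on either side of their mean. Hira, the H3.3 chaperone subunit of active genes, stood at 17.2 and 15.7 CPM in MIGR1 and at 11.9 and 13.7 CPM in dChaf1b, and it was not called. Atrx, partner of DAXX, stood at 537 and 591 CPM in MIGR1 and at 301 and 481 CPM in dChaf1b and was not called, with a log2 fold change of -0.52 that was -0.31 without dChaf1b replicate 1. Daxx itself stood at 52.8 and 44.3 against 85.9 and 46.9 CPM, with the groups overlapping.

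The 16 genes of H2A.Z exchange had a median of -0.26. Of them 8 were lower in both dChaf1b libraries and 0 higher, against 22.9% and 21.4% of all genes tested. Their median was -0.32 without dChaf1b replicate 1 and -0.07 without dChaf1b replicate 2. Among them Brd8, a bromodomain subunit of the p400 complex, stood at 149 and 152 CPM in MIGR1 and at 99.7 and 112 CPM in dChaf1b. Its log2 fold change was -0.49 (SE 0.19) and its adjusted p 0.356 in edgeR's quasi-likelihood test.

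The 11 kinases and readers of H2A.X had the lowest median of these 4 lists, -0.43. Of these genes 8 were lower in both dChaf1b libraries and 1, Wrap53, higher, against 22.9% and 21.4% of all genes tested. Their median was -0.37 without dChaf1b replicate 1 and -0.49 without dChaf1b replicate 2. Prkdc, the catalytic subunit of DNA-PK, stood at 115 and 112 CPM in MIGR1 and at 39.1 and 92.7 CPM in dChaf1b (log2 fold change -0.80, SE 0.33, adjusted p = 0.381 in edgeR's quasi-likelihood test). Atr stood at 92.1 and 104 CPM against 44.1 and 78.3 CPM (log2 fold change -0.68, adjusted p = 0.331 in the same edgeR test). For both genes dChaf1b replicate 1 was by far the lower library, and without it the log2 fold changes were -0.37 for Prkdc and -0.41 for Atr (edgeR adjusted p-values of 0.497 and 0.477). Without dChaf1b replicate 2 they were -1.40 and -1.02 (edgeR adjusted p-values of 0.0264 and 0.0744).

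The 13 genes of CENP-A deposition and reading had a median of -0.16. Of them 7 were lower in both dChaf1b libraries and 1, Rbbp4, higher, against 22.9% and 21.4% of all genes tested. Their median was -0.30 without dChaf1b replicate 1 and -0.06 without dChaf1b replicate 2. Cenpc1, the inner kinetochore protein that binds CENP-A nucleosomes, stood at 78.6 CPM in both MIGR1 libraries and at 49.0 and 62.6 CPM in dChaf1b (log2 fold change -0.48, adjusted p = 0.385 in edgeR's quasi-likelihood test). Hjurp, the CENP-A chaperone, stood at 638 and 661 CPM in MIGR1 and at 488 and 665 CPM in dChaf1b, with the groups overlapping.

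**Figure D4:**
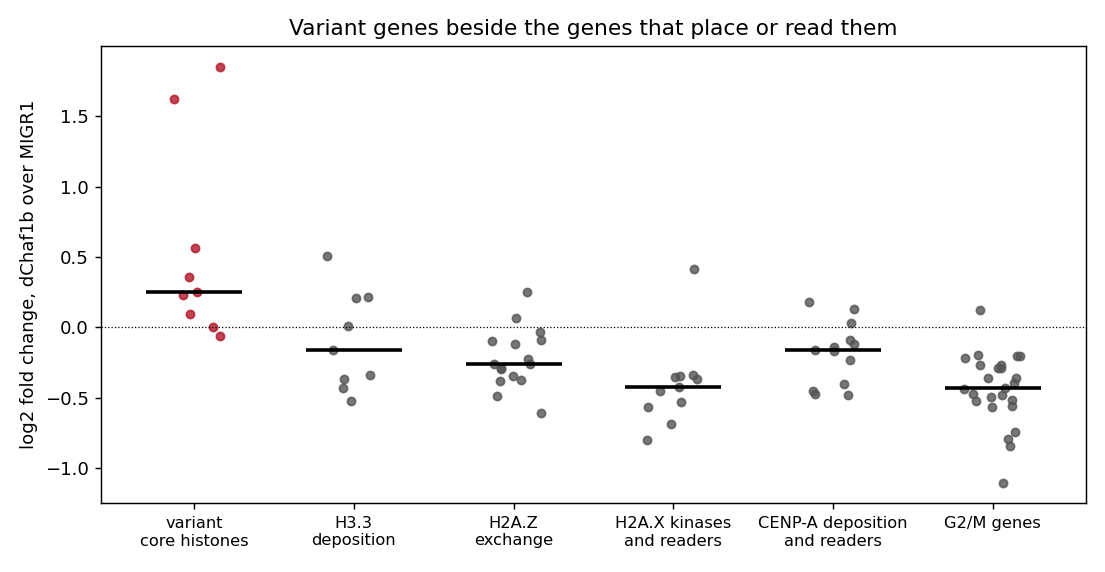
Log2 fold change, dChaf1b over MIGR1, of the 9 variant core histone genes (red) beside the genes of each deposition or reader list and the G2/M genes (grey), 1 point per gene, with the median of each list as a bar. The median is 0.25 for the variant genes and between -0.43 and -0.16 for the other lists.

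Among markers of other blood cells, 10 of monocytes, macrophages and dendritic cells summed to 996 and 2079 CPM in MIGR1 and to 2760 and 1317 CPM in dChaf1b, with 1, Flt3, called higher and 4 (Flt3, Emr1, Itgax and Ccr7) higher at an unadjusted p under 0.05. The 8 neutrophil markers summed to 48740 and 57562 CPM against 68853 and 52028 CPM, the 8 mast cell and basophil markers to 876 and 560 CPM against 754 and 761 CPM, and the 10 erythroid and megakaryocyte markers to 145 and 120 CPM against 164 and 271 CPM. The 10 lymphoid markers summed to 11.5 and 16.5 CPM against 27.4 and 24.4 CPM. These last 4 lists held 0 calls each in the edgeR quasi-likelihood test. At an unadjusted p under 0.05 in that test they held 1, 1, 4 and 2 higher genes and 1, 1, 0 and 0 lower ones. For all 16500 genes tested the numbers at that p were 1510 higher and 512 lower. The sums of the myeloid and mast cell lists overlapped between the groups, and those of the erythroid and lymphoid lists did not. Without dChaf1b replicate 1 the fitted median log2 fold change was -0.06 for the monocyte, macrophage and dendritic list and -0.22 for the neutrophil list. Without dChaf1b replicate 2 these medians were 1.17 and 0.51, against 0.70 and 0.21 with all libraries. The medians of the mast cell, erythroid and lymphoid lists stayed above 0 in both fits. No marker was at 0 in every library, and the part of cell makeup in the levels of the variant genes was not tested.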

How the data were processed

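RNA from 4 libraries of HSPCs, 2 MIGR1 and 2 dChaf1b, was analysed, with groups taken from the sample labels. The authors prepared stranded total RNA libraries with ribosomal depletion, aligned reads to mm9 with STAR and counted them with HTSeq, and deposited raw counts per gene, 1 table per library. The annotation release and the strand setting of the counting are not given in the sources used here. Rows for reads without a gene (no feature for 35.8% to 48.3% and ambiguous for 2.05% to 2.76% of the uniquely aligned reads of a library) were left out of totals and tests. Alignments that were not unique (15.6% to 18.2% of all those tallied) were not counted by the authors, so genes with copies lose counts. Symbols were matched for 33068 of 43629 identifiers, through the NCBIM37 annotation, whose coordinates, lengths and coding sequences were used; promoters came from RefSeq on GRCm38.p6.

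Counts were filtered with edgeR's expression filter (minimum count 10), normalized by TMM (factors 0.925 to 1.06) and compared with glmQLFit and glmQLFTest in edgeR 4.0.16 (R 4.3.3, limma 3.58.1) over all 16500 genes, with no covariate (common dispersion 0.0763, prior degrees of freedom 5.68). A gene was called at 1.5-fold or more if its p-value, adjusted by Benjamini-Hochberg, was under 0.05. The fold changes are relative to the TMM scaling. The SE of a log2 fold change was its absolute value divided by the square root of the F statistic of the quasi-likelihood test. Its interval was built from this SE. Intervals of fold changes used the t quantile of the fit, and those of levels the Wilson method at 95%, which covers counting error only because reads carry no molecular identifiers. Shares were compared by exact two-sided permutation over libraries. The scripts were tested on simulated data.

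The 9 members and all gene lists were chosen with earlier results of these data known. Named were all members, Chaf1b, genes overlapping a member, from each deposition list the called genes and the 2 with the largest absolute change at an unadjusted p under 0.05, and for H3f3b the 3 nearest profiles among genes with a mean above 1 CPM (on log2(CPM + 0.5) and, added after seeing the data, with no offset). The result of 1 gene under this rule is not reported here. Hira, Daxx, Atrx, Hjurp, Cabin1, Wrap53, Rbbp4, Rrm2, Xist, the markers given by name, Gm6485, the other H3f3a copies and the testis-type and cluster histone genes were named outside this rule, after their values were seen. Alternatives were DESeq2 1.42.0, its size factors, library size and upper-quartile scaling, no filter or 10 counts in every library, the exact and the likelihood ratio test of edgeR, a replicate block, other thresholds and each library left out. Omission of X and Y genes was added after seeing the data.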

Additional observations from a re-analysis of the deposited data

How the results depend on the processing

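Of the 9 variant genes 1 was called. The number was 0 with DESeq2's size factors in edgeR, with at least 10 counts in every library, at 2-fold with an adjusted p under 0.01 and with the replicate block, and 2 (H3f3b and H2afx) with no filter, with the exact and the likelihood ratio test of edgeR and with DESeq2. Single libraries left out gave 0 to 2, with 0 without MIGR1 replicate 1, H2afx alone without MIGR1 replicate 2, and both genes without either dChaf1b library. It was 1 with library size, with upper-quartile factors, with no fold minimum and, added after seeing the data, without the genes on X and Y. With the replicate block the log2 fold change of H3f3b was 1.84 with an adjusted p of 0.120 in edgeR's quasi-likelihood test, and 14 genes in all were called higher and 0 lower, against 61 and 1. The labels name nothing that same-numbered libraries share, and their deviations from the group means correlated over genes with r = 0.0101 and rho = 0.135. Among the 49 deposition and reader genes 0 were called in all alternatives but 1, with a range of 0 to 1 over left-out libraries (1 without dChaf1b replicate 2).

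Over 14 alternatives the log2 fold change ran from 1.64 to 2.05 for H3f3b (called in 9) and from 1.18 to 1.97 for H2afx (called in 7). It kept its sign for H3f3a (0.27 to 0.81), H2afj (0.29 to 0.44), H2afy2 (0.18 to 0.29) and Cenpa (0.05 to 0.44), none of them called in any. The sign turned for 3 genes that were called in none: H2afy without MIGR1 replicate 1 (0.0101) and without dChaf1b replicate 2 (0.174, the lowest being -0.318 without dChaf1b replicate 1), H2afz without MIGR1 replicate 2 (-0.0834) and without dChaf1b replicate 1 (-0.0279), and H2afv with library size (-0.0413), with 10 counts in every library (-0.0009), with the replicate block (-0.0033), without the genes on X and Y (-0.0004), without MIGR1 replicate 1 (-0.248) and without dChaf1b replicate 1 (-0.332). Leaving out each library moved the difference in the H3f3b share between 1.14 and 1.87 percentage points, in the H2afz share between -5.93 and 9.69 and in the H2afy share between -0.287 and -0.0551, and per exonic length the H2afy share differed by -0.512 points. The cause of these moves was not tested.

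Over all genes, the calls higher and lower were 27 and 1 with DESeq2's size factors, 30 and 1 with library size, 808 and 79 with no filter (31399 tested), 3 and 0 with 10 counts in every library, 537 and 37 with the exact test, 583 and 40 with the likelihood ratio test, 471 and 32 with DESeq2, and 280 and 42 without MIGR1 replicate 1, 331 and 24 without MIGR1 replicate 2, 125 and 6 without dChaf1b replicate 1, and 324 and 42 without dChaf1b replicate 2. A fit with a lone library assumes that it varies like the other group.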

Other observations

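Core histone genes known mainly from testis, listed after the data were examined, held counts in the deleted cells. Of 17 such genes 11 held 0 counts in every library and 3 passed the filter on low counts. Since Hist1h2aa and Hist1h2ba passed it through the dChaf1b libraries alone, being higher there was fixed by the filter, and the values of all 3 are given as a description. Gm12260, which mm9 annotates as a pseudogene at chr11:58775314-58775724 (plus strand) and which RefSeq synonyms place with the testis H3 variant H3t, held 17 and 11 counts in MIGR1 and 6584 and 2350 counts in dChaf1b. Its 411 bases have a single stop codon, at the end, and translate to 136 residues, of which 128 are those of H3.3. The log2 fold change was 8.49 with an SE of 0.60 (adjusted p = 0.0120 in the edgeR quasi-likelihood test, adjusted by Benjamini-Hochberg). At 0.748, 0.433, 280 and 127 CPM it was higher in dChaf1b replicate 1 than in dChaf1b replicate 2. Its log2 fold change was 7.67 without dChaf1b replicate 1 and 9.03 without dChaf1b replicate 2. Trim17, the gene it overlaps, stood at 2.20, 1.93, 1.15 and 4.98 CPM.

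Hist1h2aa and Hist1h2ba, the TH2A and TH2B genes that replace H2A and H2B in developing sperm, held 0 and 5 and 0 and 4 counts in MIGR1, and 128 and 53 and 92 and 45 counts in dChaf1b. Their fitted log2 fold changes were 5.33 and 5.24, given as a description because the filter fixed the direction. Hist3h2ba, an H2B gene outside the large clusters, stood at 3.39 and 1.85 CPM in MIGR1 and 29.7 and 21.1 CPM in dChaf1b (log2 fold change 3.32, SE 0.42, adjusted p = 0.0367 by edgeR). It was the 1 called gene of 43 tested core histone genes taken by name as replication-dependent, Hist1h2aa and Hist1h2ba among them. Over all genes tested, 0.37% were called higher. Hist3h2a, an H2A gene of the same small cluster, stood at 15.1 and 5.55 CPM against 14.6 and 27.6 CPM, and the groups overlapped.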
